A study of Mus musculus with 4 samples.

Results

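The miR-148 and miR-152 family is a set of microRNAs that share the same seed, the short stretch near the 5' end of a microRNA that pairs with target messages. It has 3 members in mouse, the hairpins Mir148a, Mir148b and Mir152, of 2202 annotated microRNA hairpins to which reads were compared. Members were chosen by name. Their reads were those that matched one of these hairpins without mismatch (templated reads), together with reads that matched after removal of 1 to 3 nucleotides from the 3' end (tailed reads). This gave 112709 and 58656 reads in Ago2 CD replicates 1 and 2, and 34035 and 42446 reads in wildtype replicates 1 and 2. None of these reads, 0 in each library, also matched another hairpin.

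The libraries came from total RNA of mouse fetal liver of a pair of genotypes: Ago2 catalytic dead (Ago2 CD), in which the Argonaute protein Ago2 has lost its ability to cut RNA, and wildtype. Each genotype had 2 libraries, which the series' design text calls biological replicates. The labels name no separate animals, strain or age, so p-values measure the spread between these libraries. In bulk tissue, fewer cells of a type and less RNA per cell cannot be told apart.

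In both genotypes the family was mostly miR-148a-3p, followed by miR-148b-3p and miR-152-3p, and no arm of the family passed the main test for a change in level. The largest difference was in the passenger arm miR-148a-5p, at 18.3 and 22.7 counts per 1000000 (CPM) in Ago2 CD against 12.0 and 9.83 CPM in wildtype. The members differed from each other at their 3' ends: 30.3% to 41.8% of whole miR-148b-3p reads carried an added U, against 1.32% to 2.07% of miR-148a-3p reads.

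A microRNA hairpin is cut by Drosha and Dicer into a duplex of a 5p and a 3p arm. One arm, the guide, is kept by an Argonaute protein and the other, the passenger, is mostly lost. The guide arms of this family are the 3p arms, and they are known to repress messages of DNA methyltransferases and, in liver, of genes of lipid metabolism. Terminal transferases can add nucleotides to the 3' end of a mature microRNA, which leaves the seed as it is.

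The mature sequences are shown because the 3 guides have the same seed and differ in a few bases after it, and carried different additions at their 3' ends. They are given 5' to 3' from RefSeq (mouse build GRCm38.p6), where all 6 arms of the family were found among 1679 mature microRNAs. Capitals mark bases 2 to 8, the seed.
miR-148a-3p: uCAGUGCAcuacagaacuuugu
miR-148b-3p: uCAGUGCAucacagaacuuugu
miR-152-3p: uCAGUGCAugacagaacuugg
miR-148a-5p: aAAGUUCUgagacacuccgacu
miR-148b-5p: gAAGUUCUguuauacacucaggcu
miR-152-5p: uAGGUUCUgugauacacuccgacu

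The seed CAGUGCA was found in these 3 guides and in no other mature sequence of that table. Counted from 1 at the 5' end, miR-148b-3p differs from miR-148a-3p by C9U and U10C, and their last 12 bases are identical. miR-152-3p differs from miR-148a-3p by C9U, U10G and U20G, and it is 21 nt long where the others have 22 nt. Among the passengers, miR-148a-5p and miR-148b-5p share the bases AAGUUCU at positions 2 to 8, and miR-152-5p has AGGUUCU there.

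The hairpins lie on separate chromosomes of GRCm38. Mir148a is at chr6:51269812-51269910 on the minus strand, outside annotated genes, and the nearest protein-coding gene, Nfe2l3, is 162760 bp away. Mir148b is at chr15:103285125-103285221 on the plus strand, in an intron of Copz1. Mir152 is at chr11:96850393-96850465 on the plus strand, in an intron of Copz2. Copz1 and Copz2 are paralogues that encode zeta subunits of the COPI vesicle coat, and both hairpins have the orientation of their host.

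The libraries differed in ways that touch several results. They held 21875540 and 15238066 reads in Ago2 CD and 15841697 and 13138065 reads in wildtype, of which 7814123 to 14422981 of 18 to 27 nt lay on a microRNA arm. The longest read was 46 nt in Ago2 CD replicate 1 and wildtype replicate 2, and 50 nt in Ago2 CD replicate 2 and wildtype replicate 1, so each genotype had 1 library of each kind. Among reads of 18 to 27 nt, those ending in TGG numbered 614439 and 280221 in the 46 nt libraries of Ago2 CD and wildtype, and 23 and 9 in the 50 nt libraries of Ago2 CD and wildtype. Reads ending in C made up 9.55% and 6.16% in the 46 nt libraries and 37.2% and 22.6% in the 50 nt libraries, with Ago2 CD before wildtype. How these read ends arose was not tested. Muscle microRNAs stood apart in wildtype replicate 1, where miR-206-3p was at 131 CPM against 1.96 to 5.36 CPM in the other 3 libraries. Markers of hepatocytes were present in each library, with miR-122-5p at 62639 and 27538 CPM in Ago2 CD and 19039 and 48665 CPM in wildtype.

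Levels of the guide arms were compared first. They are templated reads of 18 to 27 nt in CPM, with library sizes scaled by TMM, a method that lines up the bulk of the arms. They were tested with edgeR's quasi-likelihood test over all 584 arms that passed the filter on low counts, at a Benjamini-Hochberg adjusted p under 0.05. The mature guides are of nearly equal length, but the counted reads differed between guides. In the 50 nt libraries, miR-152-3p reads averaged 18.2 nt in Ago2 CD and 18.1 nt in wildtype. Tailed reads, left out of CPM, made up 36.3% and 54.0% of miR-148b-3p reads in Ago2 CD against 51.4% and 38.2% in wildtype. For miR-148a-3p they made up 4.42% and 25.5% in Ago2 CD against 22.2% and 5.18% in wildtype. CPM values of different guides are therefore compared only roughly.

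miR-148a-3p, ranked 35 of 1467 arms by mean level, was the most abundant member. It had 3815 and 3228 CPM in Ago2 CD against 3197 and 3085 CPM in wildtype. Both Ago2 CD libraries lay above both wildtype libraries, but Ago2 CD replicate 2 exceeded wildtype replicate 1 by little. The log2 change was 0.16 (SE 0.27; edgeR adjusted p = 0.996). Within the 46 nt libraries the log2 difference was 0.31, and within the 50 nt libraries it was 0.01.

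miR-148b-3p, ranked 105, had 573 and 541 CPM in Ago2 CD against 467 and 460 CPM in wildtype. The groups did not overlap, and the libraries of each genotype lay close together. The log2 change was 0.27 (SE 0.25; edgeR adjusted p = 0.996), with 0.32 within the 46 nt libraries and 0.21 within the 50 nt libraries.

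miR-152-3p, ranked 117, had 442 and 388 CPM in Ago2 CD against 387 and 438 CPM in wildtype. Here the groups overlapped. The 46 nt libraries of both genotypes were the higher ones and nearly equal to each other, as were the 50 nt libraries. The log2 change was 0.01 (SE 0.27; edgeR adjusted p = 0.998).

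Summed over the 3 guides, the family reached 4829 and 4157 CPM in Ago2 CD against 4051 and 3984 CPM in wildtype. As a plain share of all arm reads, the sums were 0.667% and 0.506% in Ago2 CD against 0.250% and 0.384% in wildtype. That share depends on miR-451a-5p, the erythroid microRNA whose maturation needs cutting by Ago2, which was at 1203 and 966 CPM in Ago2 CD against 840861 and 415708 CPM in wildtype. TMM-scaled CPM are not shares of reads: 5 erythroid arms together reached 1122826 CPM in wildtype replicate 1. With reads of miR-451a-5p left out of the total, the family took 0.668% and 0.506% in Ago2 CD against 0.519% and 0.641% in wildtype, and the groups overlapped.

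**Figure D1:**
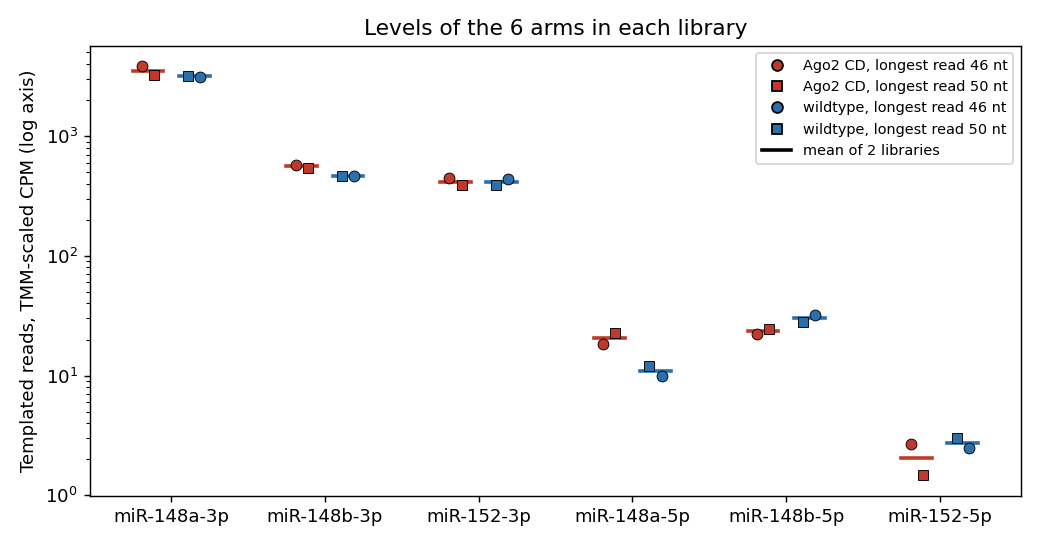
Level of each arm in TMM-scaled CPM (log axis) in each library, Ago2 CD in red to the left of wildtype in blue; circles are 46 nt and squares 50 nt libraries, and bars are means of 2 libraries. The guide arms lie between 387 and 3815 CPM and the passenger arms between 1.47 and 32.1 CPM. The groups are separate for both arms of miR-148a and miR-148b and overlap for both arms of miR-152. Of all 584 arms tested, 29.5% had separate groups.

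The passenger arms were far scarcer. miR-148a-5p was covered by 365 and 216 reads in Ago2 CD and by 72 and 87 reads in wildtype, which corresponds to 18.3 and 22.7 CPM in Ago2 CD against 12.0 and 9.83 CPM in wildtype. Each Ago2 CD library was above each wildtype library. The log2 change was 0.91 (SE 0.37), with an unadjusted p of 0.0640 and an adjusted p of 0.996 in edgeR. The difference was of like size within the 46 nt libraries (0.89) and within the 50 nt libraries (0.90). With the longest read as a term in the edgeR model, the unadjusted p was 0.00580 and the adjusted p 0.0787, which missed the threshold. That call depends on how edgeR estimates the spread. In an option chosen after seeing the data, legacy was set to FALSE in glmQLFit and the step estimateDisp was left out. The same model then gave an edgeR adjusted p of 0.0103, and without the term it gave 0.998.

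miR-148b-5p was at 22.3 and 24.5 CPM in Ago2 CD against 28.1 and 32.1 CPM in wildtype. The groups did not overlap, with Ago2 CD below wildtype, opposite in sign to miR-148a-5p. The log2 change was -0.36 (SE 0.33; edgeR adjusted p = 0.996), and it was positive, at 0.33, when reads on arms were taken as library size, where the median of all arms was itself at 0.74. miR-152-5p rested on 53 and 14 reads in Ago2 CD and 18 and 22 reads in wildtype, or 2.66 and 1.47 CPM in Ago2 CD against 3.01 and 2.49 CPM in wildtype. These overlapped, and the log2 change of -0.38 (SE 0.48; edgeR adjusted p = 0.996) was positive (0.38) under the same scaling.

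Of the 6 arms, 0 passed the threshold, where 2 of all 584 arms did (0.342%). The edgeR test with the longest read as a term also called 0 of the 6, and 17 of 584 arms (2.91%). With legacy set to FALSE it called 1 of the 6, miR-148a-5p, and 111 of 584 arms (19%), and without the term 0 of the 6 and again 0.342% of arms. Groups that did not overlap in CPM were found for 4 of the 6 arms, against 29.5% of all arms. The median log2 change over all arms was 0.04, and the 6 members lay between -0.38 and 0.91.

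The 3 guides share their seed, so their proportions were compared. miR-148a-3p made up 79.0% and 77.7% of their summed reads in Ago2 CD against 78.9% and 77.5% in wildtype. miR-148b-3p took 11.9% and 13.0% in Ago2 CD against 11.5% and 11.6% in wildtype. miR-152-3p took 9.16% and 9.33% in Ago2 CD against 9.55% and 11.0% in wildtype. The mean differences, Ago2 CD minus wildtype, were 0.132, 0.900 and -1.03 percentage points for miR-148a-3p, miR-148b-3p and miR-152-3p. Their exact two-sided permutation p-values were 0.667, 0.333 and 0.333, and 2 libraries against 2 cannot give less than 0.333. When tailed reads were counted too, miR-148a-3p made up 73.1% and 71.7% in Ago2 CD against 73.5% and 70.9% in wildtype. miR-148b-3p then took 16.4% and 19.4% in Ago2 CD against 17.2% and 16.2% in wildtype, and miR-152-3p took 10.5% and 8.91% in Ago2 CD against 9.31% and 12.8% in wildtype.

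The arm ratio compares guide with passenger reads of the same hairpin. In miR-148a the 5p arm made up 0.478% and 0.699% of both arms' reads in Ago2 CD against 0.376% and 0.318% in wildtype. In miR-148b it made up 3.75% and 4.33% in Ago2 CD against 5.68% and 6.52% in wildtype. The passenger share was larger in miR-148b than in miR-148a in each of the 4 libraries, and the genotypes were separate in both hairpins, in opposite directions; ratios of 33.5% of all 188 hairpins were likewise separate. In miR-152 the 5p share was 0.598% and 0.378% in Ago2 CD against 0.773% and 0.564% in wildtype, and these overlapped.

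The log2 ratio of 3p to 5p reads, tested with limma over 188 hairpins, changed by -0.74 (SE 0.54; adjusted p = 0.952) in miR-148a. In miR-148b the change was 0.63 (SE 0.51; limma adjusted p = 0.952), and in miR-152 it was 0.48 (SE 0.56; limma adjusted p = 0.979). None of the 3 hairpins passed, where 2 of 188 did (1.06%). With the longest read as a term, none of the 3 passed either, and again 2 of 188 hairpins did (1.06%). The limma adjusted p was then 0.203 in miR-148a, 0.244 in miR-148b and 0.47 in miR-152. Within the 46 nt and 50 nt libraries the change was -0.59 and -0.89 in miR-148a, 0.84 and 0.41 in miR-148b, and -0.07 and 1.02 in miR-152. The difference between the changes of miR-148a and miR-148b was not tested.

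**Figure D2:**
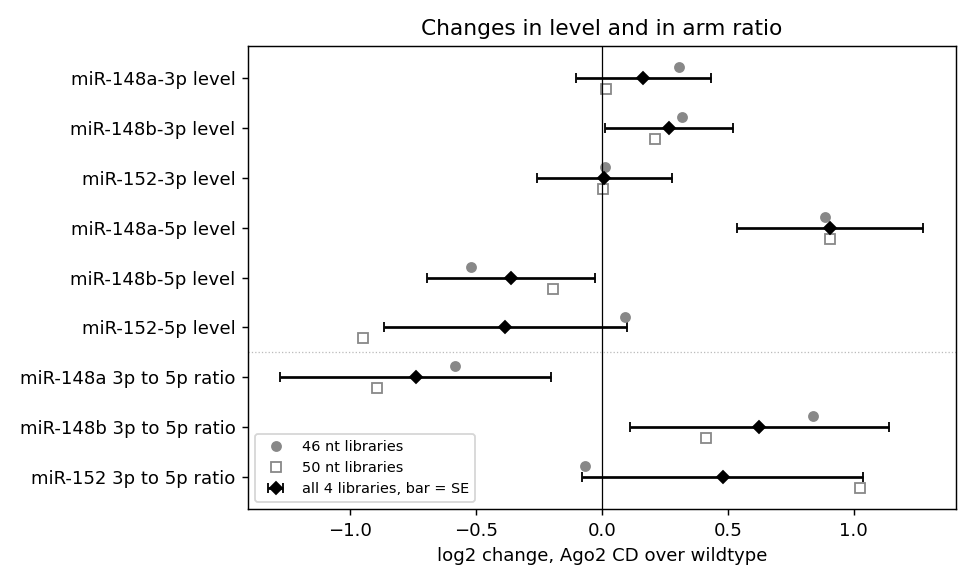
Log2 change of Ago2 CD over wildtype for the level of each arm (above the dotted line) and for the ratio of 3p to 5p reads (below it); diamonds are estimates from all 4 libraries with bars of 1 SE, and circles and squares are the differences within the 46 nt and 50 nt libraries. miR-148a-5p has the largest level change, 0.91, with nearly the same value in both kinds of library, while the values of miR-152-5p lie on both sides of 0.

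The most frequent length of miR-148a-3p was 22 nt in each library, with 67.3% and 68.4% of reads in Ago2 CD against 73.8% and 66.8% in wildtype. Its mean length was 21.52 and 21.95 nt in Ago2 CD against 21.95 and 21.53 nt in wildtype. Reads of miR-148b-3p also peaked at 22 nt, with means of 21.5 and 21.55 nt in Ago2 CD against 21.5 and 21.49 nt in wildtype.

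In miR-152-3p the most frequent length itself differed, and its most frequent reads are shown because they differ between libraries by their last bases. The first read below is the whole mature sequence and the second lacks its last 3 bases, and both are printed as sequenced.
whole read: tcagtgcatgacagaacttgg
short read: tcagtgcatgacagaact

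The whole read was counted 7669 and 0 times in Ago2 CD and 0 and 3325 times in wildtype. The short read was counted 15 and 3476 times in Ago2 CD and 2208 and 7 times in wildtype. The 3 bases that separate them are the ending TGG that was nearly missing from all reads of the 50 nt libraries. Mean length was 20.9 and 18.2 nt in Ago2 CD against 18.1 and 20.9 nt in wildtype. The whole read with 1 added U was present in each library, at 1291 and 444 reads in Ago2 CD and 324 and 706 reads in wildtype. The level of miR-152-3p in the 50 nt libraries therefore rested mostly on an 18 nt read, the shortest that was counted for an arm.

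The change in mean length, tested with limma over 253 arms, was -0.0024 nt (SE 0.25) for miR-148a-3p, 0.03 nt (SE 0.09) for miR-148b-3p and 0.03 nt (SE 1.53) for miR-152-3p. None passed the threshold, with a limma adjusted p of 0.9998 for each, where 1 of 253 arms did (0.395%). With the longest read as a term, 0 of the 3 passed and 2 of 253 arms did (0.791%). The passenger arms peaked at 22 nt for miR-148a-5p and at 24 nt for miR-148b-5p and miR-152-5p in all libraries.

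**Figure D3:**
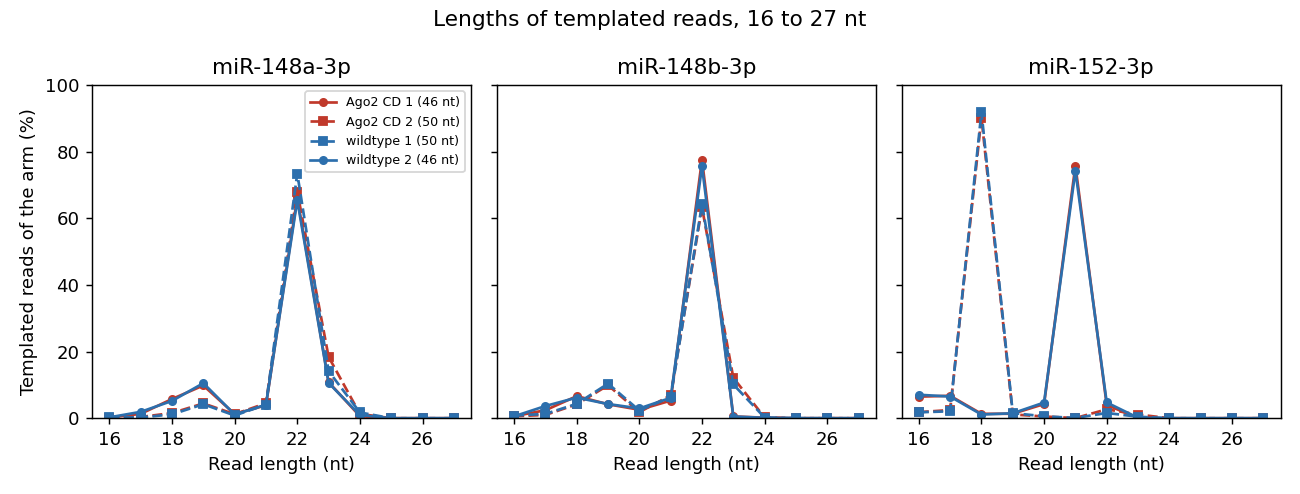
Percent of templated reads of each guide arm at each length from 16 to 27 nt; red is Ago2 CD and blue wildtype, with solid lines and circles for 46 nt libraries and dashed lines and squares for 50 nt libraries. For miR-148a-3p and miR-148b-3p each library peaks at 22 nt, and miR-152-3p peaks at 21 nt in the 46 nt libraries and at 18 nt in the 50 nt libraries.

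The 5' end matters because a shift by 1 base moves the seed. Over reads of 18 to 27 nt, 11.2% and 4.22% of miR-148a-3p reads in Ago2 CD began elsewhere than at the RefSeq start, against 3.10% and 10.4% in wildtype. For miR-148b-3p the shares were 11.0% and 6.16% in Ago2 CD against 6.63% and 10.4% in wildtype. For miR-152-3p they were 6.55% and 0.540% in Ago2 CD against 0.650% and 7.09% in wildtype. With reads of 16 and 17 nt included, the shares of miR-152-3p were 12.7% and 4.44% in Ago2 CD against 4.24% and 12.9% in wildtype. In the 50 nt libraries its main read is 18 nt long, so the same read with a later start is under 18 nt. In all 3 guides the genotypes overlapped and the 46 nt libraries were the higher ones.

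Starts 1 base downstream give bases 2 to 8 of AGUGCAC in miR-148a-3p and AGUGCAU in miR-148b-3p and miR-152-3p. With reads of 16 and 17 nt included, they made up 3.38% and 1.98% of miR-148a-3p reads in Ago2 CD against 1.65% and 3.35% in wildtype. A start 4 bases downstream made up 6.31% and 0.421% of miR-148a-3p reads in Ago2 CD against 0.255% and 5.73% in wildtype. For miR-152-3p that start was at 6.92% in Ago2 CD replicate 1 and 6.49% in wildtype replicate 2. Of the reads behind these shares, 646 of 703 in Ago2 CD replicate 1 and 275 of 291 in wildtype replicate 2 were a single 17 nt read that ends in TGG. The 50 nt libraries nearly lack that ending, and this 17 nt read without it would be below the 16 nt minimum. They can therefore hardly show this start for miR-152-3p. It had 0 reads in Ago2 CD replicate 2 and 1 read in wildtype replicate 1. From 18 nt on, the start was at 0.499% in Ago2 CD replicate 1 and 0.335% in wildtype replicate 2 for miR-152-3p, while for miR-148a-3p it was at 6.25% and 5.64% in the same libraries. The log2 odds of another start, tested with limma over 253 arms, changed by 0.29 (SE 0.95), -0.01 (SE 0.51) and -0.20 (SE 1.94) for miR-148a-3p, miR-148b-3p and miR-152-3p. None of these passed the limma test, each with an adjusted p of 0.999, and 0 of 253 arms did (0%); at an unadjusted p under 0.05 there were 2 arms.

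**Figure D4:**
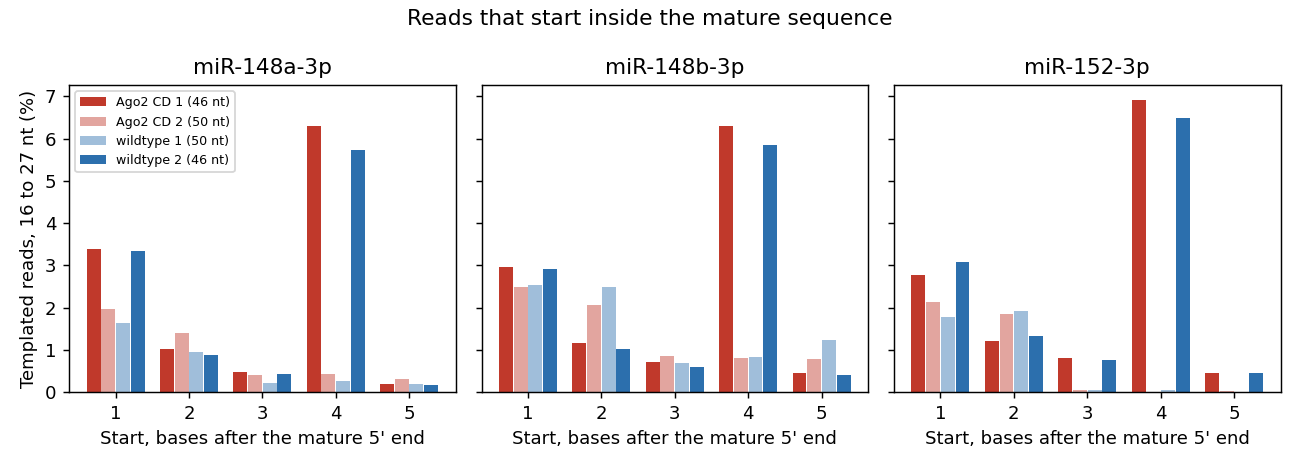
Percent of templated reads of 16 to 27 nt of each guide arm that start 1 to 5 bases after the mature 5' end, in each library; red is Ago2 CD and blue wildtype, with strong colour for 46 nt and pale colour for 50 nt libraries. The start 4 bases inside is at 5.73% to 6.92% in the 46 nt libraries for each guide. In the 50 nt libraries it is below 0.9%, and for miR-152-3p these libraries can hardly show it.

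At the 3' end the members differed from each other in each library. Of reads that held the whole mature miR-148b-3p, 30.3% and 41.8% carried added U in Ago2 CD against 40.4% and 31.2% in wildtype. For miR-148a-3p the shares were 1.32% and 1.62% in Ago2 CD against 2.07% and 1.70% in wildtype. The base that follows in the hairpin is C in both, so these U were not templated, and the last 12 bases of the 2 guides are the same.

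miR-148b-3p exceeded miR-148a-3p by 29.0 and 40.2 percentage points in Ago2 CD and by 38.4 and 29.5 points in wildtype. The mean difference was 34.2 ± 5.87 points (SD, n = 4 libraries) and it was positive in 4 of 4 libraries. The exact two-sided sign-flip permutation p was 0.125, the smallest that 4 libraries can give. This comparison was not among the planned tests, and other comparisons of 3' extensions between guides gave the same sign-flip p. Between genotypes, U on miR-148b-3p averaged 36.1% ± 8.16 in Ago2 CD and 35.8% ± 6.56 in wildtype (SD, n = 2 each; exact permutation p = 1.0). The libraries lined up by their longest read. These shares leave out reads with C in place of the final U. Such a read of miR-148b-3p was counted 6 and 1303 times in Ago2 CD and 518 and 2 times in wildtype. Over miR-148b-3p reads of 18 to 27 nt, U tails were at 29.1% and 32.7% in Ago2 CD against 32.5% and 29.6% in wildtype.

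Reads that went on with the next hairpin bases had the opposite order. They made up 14.1% and 21.7% of whole miR-148a-3p reads in Ago2 CD against 17.0% and 14.2% in wildtype. For miR-148b-3p they were at 0.476% and 8.09% in Ago2 CD against 6.96% and 0.446% in wildtype. The next base is C, so in the 50 nt libraries, where many reads end in C, an added C and the hairpin's own cannot be told apart. Added A was at 4.64% and 3.86% on miR-148b-3p in Ago2 CD, against 1.32% and 0.667% on miR-148a-3p in the same libraries.

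Added U on miR-152-3p was at 13.9% and 47.5% in Ago2 CD against 60.5% and 16.3% in wildtype. The values of 47.5% and 60.5% come from the 50 nt libraries, where the unextended read was at 0 and 1039 and 582 reads remained. In the 46 nt libraries of both genotypes miR-152-3p lay between the other guides.

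**Figure D5:**
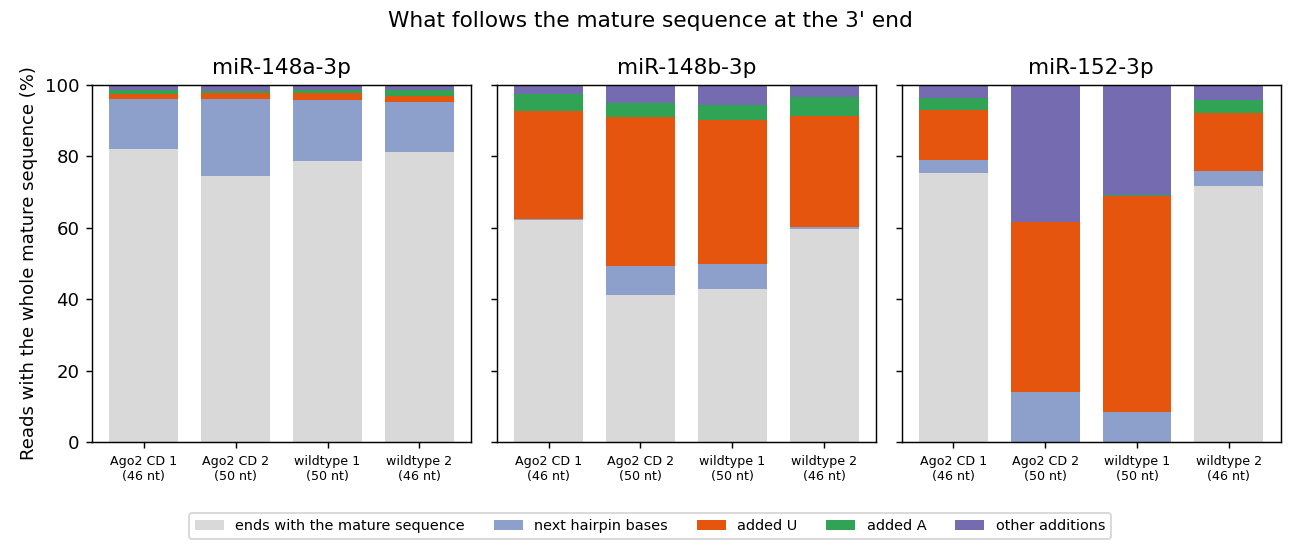
Percent of reads holding the whole mature sequence that end with it, go on with the next hairpin bases, or carry added U, added A or other additions, per library and guide arm; Ago2 CD bars stand left of wildtype bars. Added U covers 30.3% to 41.8% of miR-148b-3p and at most 2.07% of miR-148a-3p; the unextended class of miR-152-3p is at 0 in the 50 nt libraries.

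Tails were also counted on reads of any end within the arm. Tails other than C, averaged over the 4 libraries, were on 39.0% of miR-148b-3p reads, which ranked 16 among 277 arms. They were on 20.3% of miR-152-3p reads (rank 60), 12.5% of miR-148b-5p reads (rank 134) and 4.48% of miR-148a-3p reads (rank 237), where the median arm had 12.2%. For miR-148b-3p the averages were 38.4% ± 3.02 in Ago2 CD and 39.6% ± 2.06 in wildtype (SD, n = 2 each). For miR-148a-3p they were 4.36% ± 0.0571 in Ago2 CD and 4.61% ± 0.739 in wildtype (SD, n = 2 each).

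Counting C as well, 4.42% and 25.5% of miR-148a-3p reads were tailed in Ago2 CD against 22.2% and 5.18% in wildtype. Most of the tails in the 50 nt libraries were 1 read, in which C stands in place of the final U: it was counted 62 and 8018 times in Ago2 CD and 4130 and 12 times in wildtype. The log2 odds of a tail, tested with limma over 277 arms, changed by 0.01 (SE 1.35) for miR-148a-3p, 0.02 (SE 0.62) for miR-148b-3p, 0.11 (SE 0.70) for miR-148b-5p and -0.03 (SE 0.46) for miR-152-3p. None of these 4 passed (limma adjusted p = 0.9997 each), and 0 of 277 arms did (0%), with 0 at an unadjusted p under 0.05. With the longest read as a term, 0 of the 4 passed and 4 of 277 arms did (1.44%).

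Other lists were set beside the family. The miR-130 and miR-301 family has bases 2 to 8 of AGUGCAA, which the shifted miR-148a-3p, miR-148b-3p and miR-152-3p reads match except at the last base. Of its 4 arms, 0 passed in either direction in edgeR, where 2 of all 584 arms did (0.342%), so few calls can fall in lists this small. The median log2 change of the 4 was -0.09. miR-130a-3p was at 3170 and 11322 CPM in Ago2 CD against 12443 and 3083 CPM in wildtype, a difference by longest read. The 3 miR-29 guides, which also repress DNA methyltransferase messages, gave 0 calls and a median of 0.12. The 5 microRNAs of liver parenchyma gave 0 calls and a median of 0.14, and the median of all arms was 0.04.

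The arms most like each guide were sought among 202 arms with a mean of at least 100 CPM, by the root mean square difference of centred log2 CPM over 4 libraries. Closest to miR-148a-3p were miR-495-3p (0.0319), miR-487b-3p (0.0407) and miR-21a-5p (0.0669), with miR-148b-3p at rank 4 and miR-152-3p at rank 12. Closest to miR-148b-3p were miR-423-5p (0.0411), miR-21a-5p (0.0472) and miR-7-5p (0.0505). Closest to miR-152-3p were miR-106b-5p (0.0208), miR-23a-3p with miR-23b-3p (0.0466) and miR-350-3p (0.0559). This likeness over 4 libraries is a description.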

How the data were processed

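The deposited files hold counts: distinct read sequences, each with its number of reads, not normalized. The submitters' processing notes name cutadapt, an adapter trimmer; its settings, any aligner and the genome build are not given in the sources used here. Per the labels' protocols, libraries came from Trizol total RNA with a TruSeq small RNA kit. Reads were matched to 2202 GENCODE vM21 hairpins (GRCm38) on the sense strand without mismatch, with a templated stretch of at least 16 nt; an arm took reads of 18 to 27 nt, and unmatched reads were tried again after removal of 1 to 3 nt. Reads with an undetermined base (0.183% to 0.256%) and arm reads in several arms (0.0095% to 0.0293%) were left out. Mature sequences and 5' starts came from RefSeq.

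Arm counts were tested with edgeR 4.0.16 (R 4.3.3), using filterByExpr, TMM, estimateDisp, glmQLFit and glmQLFTest. The legacy option was left at its default of TRUE. Where it was set to FALSE, estimateDisp was left out. Arm ratios (at least 20 reads in every library and 10 on the minor arm overall), tails, mean lengths and 5' ends (at least 200 reads in every library; pseudocount 0.5) were tested with limma 3.58.1, all over the whole table with Benjamini-Hochberg adjustment at 0.05. Shares were compared by exact permutation (Python 3.11.15, NumPy 2.4.6, SciPy 1.17.1, pandas 2.3.3). Within-pair log2 differences in level used a prior count of 2, and those in arm ratio used the pseudocount of 0.5. A count of 0 was taken to allow 3 counts; limits cover counting error only, since reads had no molecular identifiers. The functions were tested on simulated data. Alternatives included DESeq2 1.42.0.

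Same-numbered libraries deviated from their genotype means in opposite directions (correlation -0.72 over 584 arms), so replicate numbers were not taken as pairs. With 2 libraries per genotype, the 0.72 for libraries with equal longest read is this same number with its sign changed, not a second observation. The text names both arms of each member, fixed lists of seed-offset, miR-29 and liver microRNAs, and the 3 most alike arms per guide; the reads that show a difference in ending were picked from each arm's most frequent reads. Members and lists were chosen with earlier results of these data known. miR-301a was matched to the annotated symbol Mir301.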

Additional observations from a re-analysis of the deposited data

How the results depend on the processing

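Of 211 values recomputed for 19 member results, 176 had the same sign and side of the threshold, 34 were reversed and 1 newly passed: miR-148a-5p at 0.91 (adjusted p 0.0103) in edgeR with the longest read as a term and legacy set to FALSE. Its adjusted p was 0.0787 to 1 in the other alternatives. Arms past the threshold for level numbered 2, against 8 with the DESeq2 test, 12 without a filter, 17 with the longest read as a term (111 with legacy set to FALSE, an option added after seeing the data) and 0 when any 1 library was left out. Reads on arms as library size moved the median of all arms to 0.74 and gave miR-148b-5p 0.33 and miR-152-5p 0.38; relative to that median they were at -0.41 and -0.36. miR-152-3p was at -0.011 with tailed reads counted and between -0.089 and 0.13 without 1 library. Leaving out 1 library gave 0.04 to 0.28 for miR-148a-3p, 0.74 to 1.09 for miR-148a-5p, -0.43 to -0.24 for miR-148b-5p, -0.89 to -0.04 for miR-152-5p, arm ratio changes of -1.02 to -0.46 for miR-148a, 0.52 to 0.73 for miR-148b and 0.17 to 0.79 for miR-152, 1 to 2 calls for arm ratio and 0 calls for mean length, and shares of -0.603 to 0.868 points for miR-148a-3p, 0.323 to 1.48 for miR-148b-3p and -1.76 to -0.308 for miR-152-3p. For the log2 odds of a tail, tails other than C gave -0.046, -0.029 and -0.063 for miR-148a-3p, miR-148b-3p and miR-148b-5p, with or without the longest read as a term; that term gave 17 calls for tails other than C and 4 for all tails, against 0. Mean length had 1 call, against 0 with at least 50 reads or with reads of 16 to 27 nt, and 2 with the longest read as a term; miR-148b-3p was at -0.016 nt with tailed reads, and miR-148a-3p at 0.0092 nt with reads of 16 to 27 nt. For 5' ends, tailed reads gave 0.053 for miR-148b-3p and 0.068 for miR-152-3p, and reads of 16 to 27 nt gave 0.023 for miR-152-3p, with or without the longest read as a term. Without 1 library, log2 odds of a tail ranged over -1.43 to 1.46, -0.51 to 0.54, -0.55 to 0.76 and -0.23 to 0.17 for miR-148a-3p, miR-148b-3p, miR-148b-5p and miR-152-3p. Mean length ranged over -0.21 to 0.21 nt for miR-148a-3p and -1.37 to 1.44 nt for miR-152-3p, and log2 odds of another 5' end over -0.64 to 1.22, -0.47 to 0.45 and -2.02 to 1.63 for the 3 guides in the same order. The 16 to 27 nt alternatives were chosen after seeing the data. The cause was not tested. With the replicate block, 3 arms passed for level, 2 hairpins for arm ratio and 0 arms for mean length, tails and 5' ends; no member's call changed with it. Crossed pairing is the longest-read term above, with 17 arms called. The passenger arms, at 14 to 445 reads, limit what could be detected for them.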
